A study of Mus musculus with 73 samples.

Results

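Among 33302 FoxA binding sites of mouse liver, each 400 bp long, 8345 were methylated at a mean of 20% to below 60% in the control hepatocytes. Of these, 6690 sites (20.1% of all FoxA sites, in 6207 separate regions) neither appear on the deposited list of sites that gained methylation after developmental loss of FoxA nor lost 15 points or more. These 6690 are called member sites below. Of the other sites of the same control level, 1494 are on the list and serve as the contrast (listed sites below), and 161 fell by 15 points or more. Mean control and developmental null levels in whole-genome bisulfite sequencing (WGBS) chose the members, so those levels are given as a description and without a test. Of the member sites, 5776 also have levels in the adult null table, and 914 do not, since that table holds no sites on chromosomes 1 and 2.

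FoxA1 and FoxA2 are forkhead factors that bind regulatory DNA of liver genes and can bind sites wrapped in nucleosomes. Methylation of cytosine in CpG pairs is copied when DNA is replicated, is usually low at active enhancers and promoters, and is usually high elsewhere in the genome. A level between these extremes is an average over many DNA molecules: a mixture of methylated and unmethylated cells and partial methylation within each cell cannot be told apart in these data.

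WGBS measured hepatocytes of Foxa1L/L;2L/L mice without Cre (control, 2 libraries, 8 weeks old), the same genotype with the Alfp Cre transgene active from liver development (developmental null, 2 libraries, 8 weeks old), and the same genotype with a virus carrying Cre under the hepatocyte promoter Tbg (adult null, 2 libraries, injected at 8 weeks, for 1 month). Reduced representation bisulfite sequencing (RRBS), which reads CpG-rich fragments, gave levels per 100 bp tile in 27 libraries. An age series paired 1 control with 1 FoxA developmental double null at 4 ages: 20 days old, 8 weeks old, 4 months old and 6 months old. At 8 weeks, 2 livers were FoxA1L/L;FoxA2L/+ and 2 were FoxA1L/+;FoxA2L/+, each depleted in development. FoxA triple nulls were taken 7 days (3 libraries, 9 weeks old) and 13 days (2 libraries, 12 weeks old) after Cre. Their GFP controls (3 and 2 libraries) carry the floxed alleles and also lack FoxA3. FoxA double nulls made in adulthood (3 libraries) and AAV GFP controls (2 libraries) all had partial hepatectomy, at 12 weeks of age. Chromatin immunoprecipitation of HNF6, a homeodomain factor of liver, gave peak lists for 3 control, 2 developmental null and 2 adult null livers. The labels do not say whether samples of a group are separate animals, so p-values measure the spread between these samples, which may be technical. The WGBS samples are labelled hepatocytes and the RRBS and HNF6 samples liver, although the RRBS protocol names hepatocyte DNA; no file used here measures cell type markers.

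The RRBS libraries hold values at 445198 to 622668 of 817277 tiles, and the number of reads behind each level is unknown. The 8 age series libraries stand apart from the other 19: at 87676 tiles with low methylation lying more than 2000 bp from any FoxA site, their mean level was 3.46% to 4.13%, against 1.37% to 1.93% elsewhere. Comparisons below therefore stay within an experiment, and levels across experiments are set side by side only.

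In WGBS, member sites averaged 35.03% and 37.03% in the 2 controls (36.0% ± 1.42, SD, n = 2) and 40.7% and 40.5% in the 2 developmental nulls (40.6% ± 0.0966, SD, n = 2). The group means differ by 4.56 points, and over all FoxA sites the means went from 21.5% to 25.6%; these are the values that chose the sites, and nothing is read from them. The median site changed by 4.44 points, 2743 sites (41.0%) changed by less than 5 points in either direction, and 1761 (26.3%) rose by 10 points or more without reaching the list. Listed sites began at the same 36.3% ± 2.40 and stood at 67.2% ± 0.0788 in the nulls (SD, n = 2 each), a span that their selection required. Member sites with control levels of 20 to 30%, 30 to 40%, 40 to 50% and 50 to 60% averaged 28.7%, 39.6%, 49.6% and 60.4% in the developmental nulls, within the limits that the rule sets on the change.

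**Figure D1:**
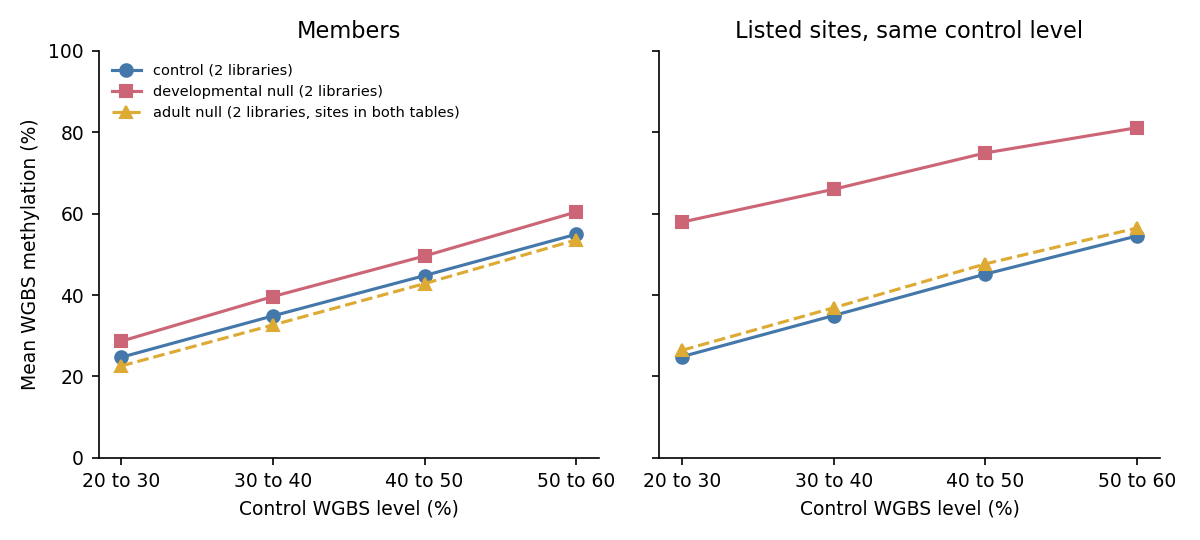
Mean WGBS methylation (percent, vertical axis) of member sites (left) and listed sites of the same control level (right) in 4 bands of control level (horizontal axis); circles are controls, squares developmental nulls and triangles adult nulls, 2 libraries each. In members the 3 lines run close together, whereas in listed sites the developmental null line lies far above the others; the choice of sites sets the control and developmental null levels of both classes.

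Single member sites were measured with some noise. The 2 controls differed by a median of 5.67 points per site, and 5428 members (81.1%) were at 20% to below 60% in both. With the first control in place of the mean, the same rule chose 6313 sites, of which 85.7% were also at 20% to below 60% in the second control. With the second control it chose 6867 sites, of which 78.4% were in that range in the first. Across the 6 WGBS libraries, 3031 of the 5776 members in both tables (52.5%) were within the range in every library; 4 of these libraries chose the sites, so the count is a description.

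The 3 members with control levels of 40% or more and the smallest spread over all 6 libraries show how constant a level can be. Site chr11:3052005-3052404 measured 52.4% and 51.3% in the controls, 53.7% and 51.5% in the developmental nulls, and 54.6% and 52.6% in the adult nulls. Site chr11:83842214-83842613 measured 46.6% and 44.7%, then 45.7% and 43.3%, then 46.5% and 44.8% in the same order. Site chr11:3049696-3050095 lay at 43.7% to 47.4% in all 6. At the second site the 3 genotypes overlap. At the first the adult nulls, and at the last all 4 nulls, lie just above both controls, by less than the gap between libraries at most members. These sites were chosen for their small spread, so the spread is a description.

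Just inside the listing limit were chr4:101366873-101367272, with a mean rise of 19.99 points, and chr17:50695092-50695491, with 19.97. Just outside were chr16:43234869-43235268, with 20.01 points, and chr5:92509357-92509756, with 20.04. At the lower limit, chr3:21395065-21395464 fell by 14.91 points and chr16:43247115-43247514 fell by 14.9, inside, whereas chr2:149427788-149428187 fell by 15.04 and chr17:24492012-24492411 fell by 15.07, outside. The limits therefore divide sites of nearly equal change.

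After loss of FoxA in adulthood most member sites had a mean level within the intermediate range, as did most listed sites. At the 5776 sites in both tables, controls averaged 35.05% and 37.09% and adult nulls 34.0% and 34.1%, a difference of group means of -2.0 points (36.1% ± 1.45 against 34.1% ± 0.0568, SD, n = 2 each), while all 28654 sites averaged 21.5% and 20.05%. The adult null mean lay at 20% to below 60% at 4747 members (82.2%, Wilson 95% interval 81.2% to 83.2%, covering counting error over sites only), at 5 to 20% in 827 and at 60 to 80% in 193. The same range held 84.8% of listed sites, and 23.0% of all 28654 sites, which begin at every control level. With limma, 0 member sites were higher and 0 lower in adult nulls at an adjusted p under 0.05, and 0 of all 28654 sites passed in either direction (background 0%). At an unadjusted p under 0.05, 91 members were higher (1.58%, background 1.53%) and 288 lower (4.99%, background 6.5%), shares near those of all sites. Both adult nulls were below both controls at 1570 members (27.2%, background 28%) and above them at 617 (10.7%, background 10.2%). Among listed sites the shares ran the other way, 14.0% below and 24.1% above. The control levels in these comparisons also chose both classes, so the counts and shares are descriptions, and nothing is read from the contrast. The adult nulls were sampled 1 month after injection at 8 weeks and the controls at 8 weeks, so age and genotype cannot be told apart here.

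Both adult nulls lay above the other 4 WGBS libraries at 117 members (2.03%, background 2.13%) and below them at 1129 (19.5%, background 16.2%), although none passed the adjusted threshold. The developmental null levels among those 4 were bounded by the choice of members, so nothing is read from these shares. The steepest rise was at chr19:25012504-25012903, which measured 37.5% and 37.0% in controls, 29.7% and 35.3% in developmental nulls, and 67.6% and 71.9% in adult nulls (difference from control 32.45 points, SE 4.33, limma adjusted p = 0.406). The next 2 by size were at chr12:109919105-109919504, from 42.5% and 55.7% to 82.4% and 80.1%, and at chr12:111148362-111148761, from 58.3% and 54.9% to 77.9% and 94.2%. At all 3 sites the adult nulls lie well above every other library. The steepest fall was at chr17:67231232-67231631, which measured 37.5% and 41.8% in controls, 21.3% and 61.8% in developmental nulls, and was listed at 0% in both adult nulls (limma adjusted p = 0.558), with the developmental nulls far apart. At chr13:54771881-54772280 the level went from 46.3% and 50.7% to 19.3% and 20.5%.

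Developmental nulls exceeded adult nulls at 262 members by limma (4.54%, background 7.83%) and fell below them at 4 (0.0693%, background 0.206%), against 822 of 1240 listed sites (66.3%). The developmental null levels chose both classes, so nothing is read from these counts.

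Member sites lay farther from other FoxA sites than FoxA sites in general. Their median distance to the nearest FoxA site was 3669 bp, against 2438 bp for listed sites and 1333 bp for all sites, and 28.3%, 32.5% and 40.03% overlapped another FoxA site. A listed site lay within 5000 bp of 6.08% of members and of 29.7% of listed sites; overlapping sites share reads, so the latter value is partly built in. Where the nearest other FoxA site stood 400 to 5000 bp away (2569 members), that neighbour had a median control level of 11.2%, and 64.1% of the neighbours were below 20%. For listed sites that share was 57.5% (of 637) and for all FoxA sites 67.8% (of 15012), so the member share is near that of all sites. Members made up 18.3% (chromosome 6) to 22.4% (chromosome 13) of the FoxA sites of each chromosome.

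RRBS tiles divided the sites more finely. Inside member sites lay 1012 tiles, in 717 sites, after 7 tiles shared with listed sites were left out; 371 tiles in 264 sites had values in all 8 age series libraries. By their mean level over those libraries, 94 of the 371 (25.3%) were below 10%, 224 (60.4%) at 10 to 60% and 53 (14.3%) above 60%. Of all 369462 tiles measured in the age series, only 9.53% were at 10 to 60%. Of 49 tiles in listed sites, 71.4% were at 10 to 60% and 2.04% below 10%. In some members an intermediate level was the mean of a low and a high stretch. Of 93 members with 2 or more tiles measured in all 27 libraries, 8 had a tile with a mean over libraries below 20% and another above 60%, and 16 had a gap over 40 points. In member site chr9:57504822-57505221, at 43.8% and 49.6% in the WGBS controls, tile 57504901 to 57505000 ranged from 0% to 21.6% over 27 libraries (median 6.17%) and tile 57505101 to 57505200 from 65.0% to 100% (median 86.7%). In chr10:5476111-5476510, at 47.8% and 54.2%, adjacent tiles had medians of 6.67% and 79.2%. In chr15:78262426-78262825, at 54.6% and 46.1%, adjacent tiles had medians of 6.67% and 83.3%. At these 3 sites the low and the high tile do not overlap in any library. Nor do their ranges at chr17:87505742-87506141, chr19:53417637-53418036 and chr9:120113019-120113418. The ranges did overlap at chr3:145562940-145563339 (low tile up to 78.3%, high tile from 46.2%) and chr4:137443903-137444302 (low tile up to 55.7%, high tile from 29.6%). The median gap over all 93 sites was 5.91 points, so such splits were the minority.

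In the age series, member tiles were slightly higher in developmental nulls than in controls at each of the 4 ages. In order of age, from 20 days to 6 months, the control libraries averaged 34.4%, 24.8%, 22.2% and 19.9%. The nulls averaged 36.3%, 29.9%, 26.3% and 25.8%, higher by 1.86, 5.16, 4.11 and 5.89 points (29.6% ± 4.83 against 25.3% ± 6.38, SD over ages, n = 4 each). Over the 4 ages the ranges of the genotypes overlap, and both fall with age. The 49 tiles of listed sites were higher by 9.68, 26.5, 17.9 and 26.1 points, so the WGBS difference between the classes was also present in these other libraries. With limma, 5 member tiles were higher in nulls (1.35%, background 0.176%) and 0 lower (background 0.0625%). At an unadjusted p under 0.05, 62 were higher (16.7%, background 5.59%) and 9 lower (2.43%, background 3.18%). All 4 nulls were above all 4 controls at 18 member tiles (4.85%, background 1.93%) and below at 2 (0.539%, background 0.978%), against 12 of 49 listed tiles (24.5%). Other intermediate tiles were also called more often than all tiles: among 30894 tiles at 10 to 60% and more than 2000 bp from any FoxA site, limma called 0.605% higher and the 4 nulls were above the 4 controls at 2.94%. Among tiles at 10 to 60%, 4 of 224 member tiles (1.79%) and 16 of 368 tiles in the remaining FoxA sites (4.35%) were called higher. The remaining set leaves out tiles of listed sites of the same control level. It keeps tiles of sites on the list at other control levels, and tiles shared by members and listed sites. In order of age, the means of those 224 tiles were higher in nulls by 3.63, 7.10, 4.89 and 6.79 points. Those of the 368 tiles were higher by 3.11, 5.09, 4.12 and 7.16 points, and those of the 30894 far tiles by 0.455, 1.61, 0.843 and 3.14. Sites on the list were chosen for a gain, so the 368 tiles cannot show whether the rise was particular to members. The far tiles rose at each age too, by less than the 224 member tiles. The count of 5 became 0 when the spread came from the 8 libraries alone, 1 on a logit scale and 0 with the replicate number, which here stands for age, as a block. A block by age with the spread of all RRBS groups, chosen after seeing the data, gave 10.

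**Figure D2:**
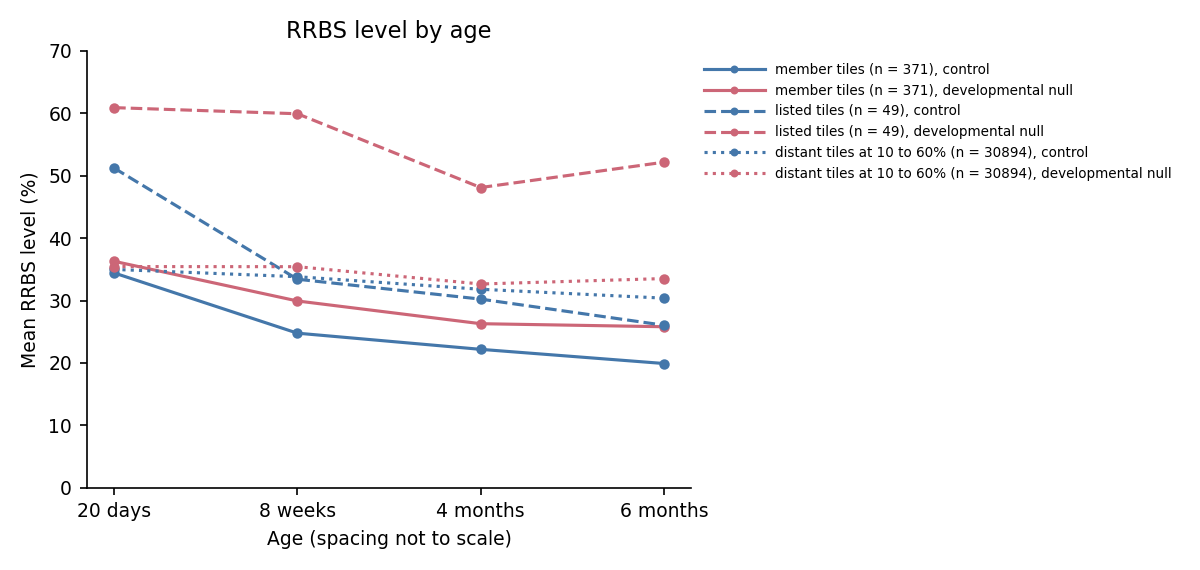
Mean RRBS level (percent, vertical axis) at 4 ages (horizontal axis, not to scale), 1 library per genotype and age, for member tiles (solid), listed tiles (dashed) and tiles at 10 to 60% far from FoxA sites (dotted); blue is control and red developmental null. Member tiles went from 34.4% to 19.9% in controls and from 36.3% to 25.8% in nulls.

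The RRBS difference was graded by how far the site had moved in WGBS, although all these sites are outside the list. Tiles of members whose WGBS change was -15 to -5, -5 to 0 and 0 to 5 points differed by a mean of 0.643 (46 tiles), 0.165 (65 tiles) and 1.82 points (96 tiles) between RRBS nulls and controls. Tiles of members with WGBS rises of 5 to 10, 10 to 15 and 15 to 20 points differed by 6.74 (71 tiles), 7.57 (62 tiles) and 13.4 points (31 tiles). In the last bin the 4 ages ranged from 8.17 to 16.4 points. All 31 of its tiles were higher in the mean of the nulls, against 50.0% of tiles in the first bin and 55.9% of all tiles. Listed tiles with WGBS rises of 20 to 30 points followed at 19.6 points (38 tiles). The RRBS libraries did not enter the choice of sites. From the second bin on the means rise from bin to bin, within the members and across the listing limit; tiles are not independent replicates.

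**Figure D3:**
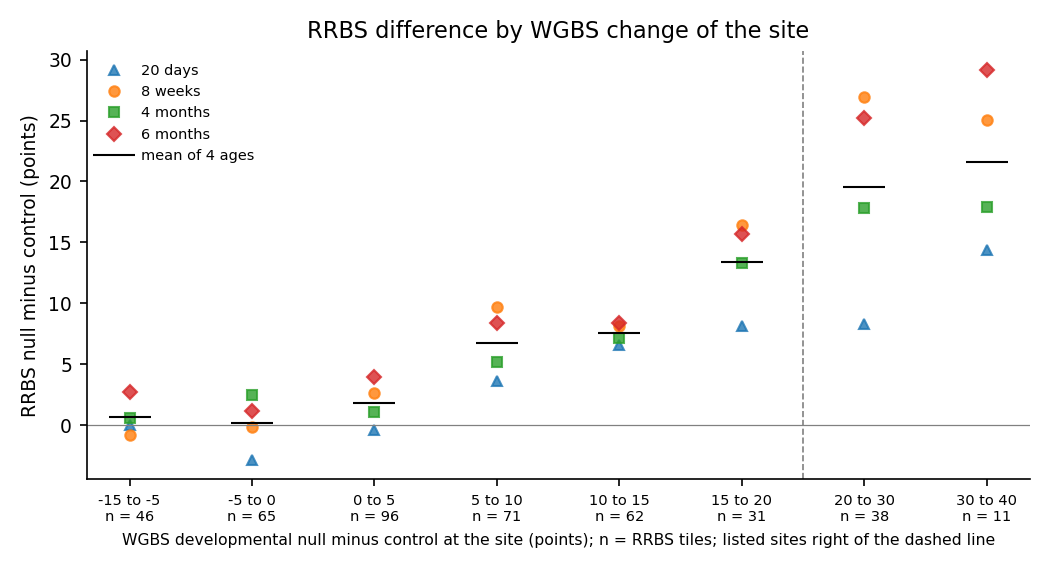
RRBS developmental null minus control (percentage points, vertical axis) for tiles grouped by the WGBS change of their site (points, horizontal axis); symbols are the 4 ages, 1 library pair each, and bars their mean, with listed sites right of the dashed line. The means go from 0.643 in the leftmost bin to 13.4 in the rightmost member bin.

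The 5 tiles that limma called were at different levels. Tile chr5:120970401-120970500 measured 0%, 14.3%, 22.2% and 9.09% in controls of 20 days, 8 weeks, 4 months and 6 months, and 30.8%, 27.3%, 69.6% and 56.2% in the nulls of those ages (difference 34.56 points, SE 6.73, adjusted p = 0.0302). Tile chr11:83890101-83890200 measured 0% to 6.67% in controls and 20% to 35% in nulls (difference 23.23 points, SE 4.54, adjusted p = 0.0333). Tile chr13:55464501-55464600 measured 4.35% to 25.9% in controls and 29.0% to 48.5% in nulls (difference 23.76 points, SE 4.75, adjusted p = 0.0354). At these 3 tiles every null lies above every control. Tile chr4:137444101-137444200 measured 28.3%, 9.85%, 7.81% and 6.32% in controls and 55.7%, 47.4%, 24.3% and 27.3% in nulls, in order of age (difference 25.59 points, SE 5.33, adjusted p = 0.0464); its 20-day control overlaps the older nulls. The fifth tile, chr1:59479901-59480000, named after its values were seen, measured 0% to 4.92% in controls and 5.26% to 14.3% in nulls (difference 7.98 points, SE 1.56, adjusted p = 0.0304). In the 19 libraries of the other experiments the chromosome 5 tile was at 2.86% to 27.3%, the chromosome 4 tile at 0.676% to 13.2% and the chromosome 1 tile at 0% to 5.00%. The chromosome 11 tile was there at 6.52% to 35% (11.1% to 26.7% in their controls), and the chromosome 13 tile at 5.88% to 36.2%, with 27.5%, 28.6% and 36.2% in the day 7 controls. At these last tiles the levels of other experiments, controls included, reach into the range of the age series nulls.

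Member tiles were higher at 20 days than later in both genotypes. The control went from 34.4% at 20 days to 22.3% ± 2.43 (SD, n = 3) over the older ages, and the null from 36.3% to 27.3% ± 2.25 (SD, n = 3). All tiles stood at 58.6% and 58.8% in controls over the same step, and tiles at 10 to 60% far from FoxA sites at 34.98% and 32.0%. In the limma model of age and genotype, 65 member tiles were lower at the older ages (17.5%, background 1.5%) and 3 were higher (0.809%, background 0.596%). All 6 older libraries were below both 20-day libraries at 90 member tiles (24.3%, background 3.62%). Restricted to tiles at 10 to 60%, 59 of 224 member tiles were lower (26.3%), against 91 of 368 tiles in the remaining FoxA sites (24.7%), 9 of 35 listed tiles (25.7%) and 1820 of the 30894 far tiles (5.89%). Intermediate tiles of the remaining FoxA sites were thus called lower about as often as those of members. Each genotype has 1 library at 20 days, so age and library cannot be told apart; the level at low tiles far from FoxA sites in those 2 libraries, 3.83% and 3.99%, lay within the range of the older 6. Without the 20-day control 42 tiles were called lower, and with the spread of the 8 libraries alone 28.

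Some falls were nearly complete. Tile chr17:45970901-45971000 measured 100% in the 20-day control and 82.4% in the 20-day null, and 18.2%, 3.85% and 5.88% in controls of 8 weeks, 4 months and 6 months, with 0%, 5.00% and 6.67% in the nulls (difference -84.58 points, SE 4.37, adjusted p = 1.66e-10). Tile chr10:107885501-107885600 measured 85.0% and 88.5% at 20 days, was listed at 0% in the 3 older controls and measured 12.5% to 20.0% in the older nulls (difference -79.18 points, SE 5.30, adjusted p = 8.4e-09). In the other 19 libraries, of 8 weeks and older, the first tile was at 0% to 20.0% and the second at 0% to 21.4%. Both sites were nevertheless intermediate in the WGBS controls, at 54.1% and 52.7%; next to the second tile, tile 107885401 to 107885500 was at 84.6% to 100% in every library with a value. The rises were smaller: tile chr8:111346901-111347000 went from 4.17% at 20 days to 32.4% to 38.1% in controls and from 22.4% to 47.5% to 52.1% in nulls (difference 29.34 points, adjusted p = 0.00329). The others were chr7:125955301-125955400 (19.01 points, adjusted p = 0.0356) and, named after its values were seen, chr12:70400501-70400600 (9.45 points, adjusted p = 0.0197).

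With 1 library per genotype at 20 days, a difference between genotypes in the change with age was called by limma at 6 member tiles, 3 in each direction (0.809% each, background 0.316% and 0.349%). Of 368 tiles at 10 to 60% in the remaining FoxA sites, 1.9% were called higher and 1.09% lower. Tile chr10:123007901-123008000 measured 2.38% in the 20-day control and 2.13% to 6.52% in older ones, but 41.9% in the 20-day null and 1.75% to 11.4% in older ones (interaction -36.58 points, adjusted p = 0.00215). The opposite pattern stood at chr11:82377501-82377600, with 42.9% in the 20-day control, 7.14% to 13.5% in older ones, and 8.00% to 22.7% in all nulls (interaction 43.12 points, adjusted p = 0.0485).

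Triple nulls 7 days after Cre were lower at member tiles than their controls. Over 530 tiles the 3 nulls averaged 20.0% to 21.8% (21.0% ± 0.905, SD, n = 3) and the 3 controls 23.6% to 23.9% (23.7% ± 0.128, SD, n = 3), a difference of -2.70 points with no overlap. With limma, 0 tiles were called higher (background 0.00125%) and 0 lower (background 0.00291%), and the same 0 resulted under each alternative run. At an unadjusted p under 0.05, 31 were lower (5.85%, background 1.8%) and 1 higher (0.189%, background 2.3%), and 68.3% of member tiles were below 0, against 47.6% of all tiles and 52.6% of far tiles at 10 to 60%. Restricted to tiles at 10 to 60%, 135 of 211 member tiles were below 0, against 145 of 224 tiles in the remaining FoxA sites. Their median differences were -1.95 and -2.39 points, so the fall was not particular to members. Listed tiles differed by -0.725 points with overlapping libraries. The low tiles far from FoxA sites moved the same way, at 1.37% to 1.47% in nulls and 1.51% to 1.61% in controls; their part in the result was not tested. The tile with the smallest unadjusted p, chr1:30684901-30685000, measured 18.2%, 30.5% and 37.5% in nulls and 50.0%, 63.4% and 53.8% in controls (difference -27.02 points, SE 7.27, limma adjusted p = 0.754). Its groups do not overlap, and the difference does not pass the adjusted threshold.

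At 13 days, 466 member tiles averaged 21.3% and 22.2% in nulls and 23.5% and 23.7% in controls, a difference of -1.86 points (21.7% ± 0.596 against 23.6% ± 0.140, SD, n = 2 each). With limma, 0 were called in either direction (background 0.00271% higher and 0.00475% lower), and 15 were lower and 5 higher at an unadjusted p under 0.05 (3.22% and 1.07%, backgrounds 2.59% and 2.09%). Listed tiles differed by -2.55 points with overlapping libraries. Low tiles far from FoxA sites were again lower in nulls, at 1.45% to 1.54% against 1.63% to 1.72%, and their part was not tested. Tile chr12:112231601-112231700 measured 3.57% and 3.45% in nulls and 20.8% and 16.7% in controls (difference -15.24 points, SE 3.71, limma adjusted p = 0.498).

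After partial hepatectomy, in which the remaining liver regrows, 552 member tiles averaged 23.2% ± 0.676 in adult double nulls (n = 3) and 22.3% ± 1.65 in controls (n = 2), SD each. The difference of 0.940 points was within the spread of the controls. With limma, 0 tiles were called in either direction (background 0.00104% higher and 0.000828% lower), and 11 were higher and 10 lower at an unadjusted p under 0.05 (1.99% and 1.81%, backgrounds 2.37% and 2.3%). Listed tiles differed by 4.22 points with overlapping libraries, and limma called 0 of 69 in either direction.

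At the 316 member tiles measured in all 27 libraries, livers with 1 Foxa2 allele left averaged 22.3% and 22.9%, and FoxA1L/+;FoxA2L/+ livers 21.6% and 22.1%. The other adult groups had means of 19.4% to 22.5%. The 2 libraries of 20 days, at 33.2% and 34.7%, are the highest of all. These partly depleted livers have no matched control, so their levels are only set beside those of the 8-week age series libraries, 23.5% in the control and 27.7% in the null.

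**Figure D4:**
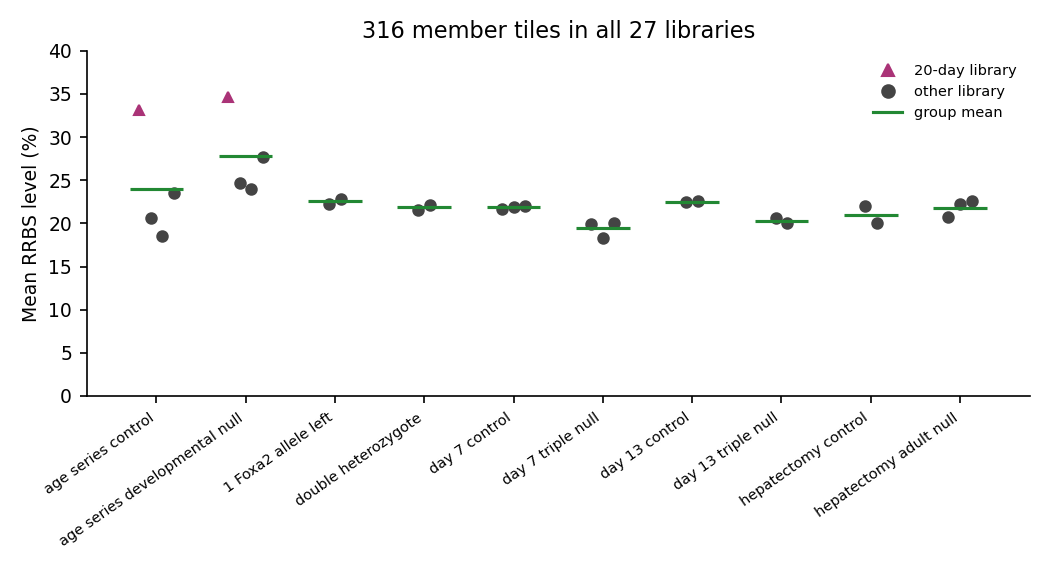
Mean RRBS level (percent, vertical axis) of the 316 member tiles with values in all 27 libraries, by group (horizontal axis); each point is 1 library, triangles are the 20-day libraries and bars are group means. The day 7 triple nulls lie below their controls, and the 20-day libraries lie at 33.2% and 34.7%, above all others.

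Site chr1:95106922-95107321, one of 3 members with most tiles measured in every library (3 tiles), shows a difference of the age series in full. Its WGBS levels were 34.6% and 29.9% in controls and 48.3% and 49.2% in developmental nulls, a rise of 16.54 points. In RRBS the controls measured 52.2%, 20.4%, 18.4% and 16.6% in order of age, and the nulls 50.2%, 54.0%, 47.9% and 57.6%. The genotypes lay together at 20 days and apart at every later age. Depleted livers of genotype FoxA1L/+;FoxA2L/+ measured 42.9% and 42.2% and those of FoxA1L/L;FoxA2L/+ 28.4% and 38.9%. Controls of other experiments measured 33.7% and 50.9% on day 13, 25.4% to 38.1% on day 7, and 20.2% and 19.5% after hepatectomy. The other site with 3 tiles on chromosome 1, chr1:169690420-169690819, showed no such gap, at 16.7% ± 7.54 in controls and 18.6% ± 5.19 in nulls (SD over ages, n = 4 each). At the third, chr10:5476111-5476510, controls measured 40.4%, 33.6%, 25.0% and 28.0% in order of age, and nulls 58.3%, 32.1%, 37.7% and 33.1%. There the genotypes overlap and the gap was widest at 20 days.

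HNF6 occupied few member sites. A peak overlapped 4.87%, 3.32% and 0.741% of the 6207 member regions in the 3 control lists, against 3.26%, 2.37% and 0.371% of 1349 listed regions and 7.01%, 5.65% and 1.54% of all 25640 FoxA regions. Overlapping sites of a class were joined, so that 6690 member sites gave 6207 regions and all 33302 sites gave 25640. Regions of all sites thus join more sites each, and the effect of their size on the shares was not tested. In the first control the Wilson 95% intervals were 4.36% to 5.43% for members and 6.71% to 7.33% for all regions, counting error only; the regions are parts of the same libraries. In developmental nulls the member shares were 0.612% and 0.354%, and in adult nulls 3.37% and 5.20%. HNF6 regions merged from overlapping peaks of all 3 controls reached 46 member regions, or 51 sites. Of these 51 sites, 29 and 18 also had a peak in the 2 developmental null lists, and 49 and 50 in the adult null lists. Over all 675 FoxA sites that such merged regions reached, 51.1% and 35.4% had a peak in developmental nulls and 95.7% and 97.2% in adult nulls, close to the member shares. Control and developmental null lists were called with MACS 2.1.1 and adult null lists with MACS 1.4.3, with median peak widths of 82 to 150 bp and 307 to 320 bp, so caller and genotype cannot be told apart in the adult lists. The list lengths, 1188 to 5767 peaks, also differ, and every share moves with them.

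**Figure D5:**
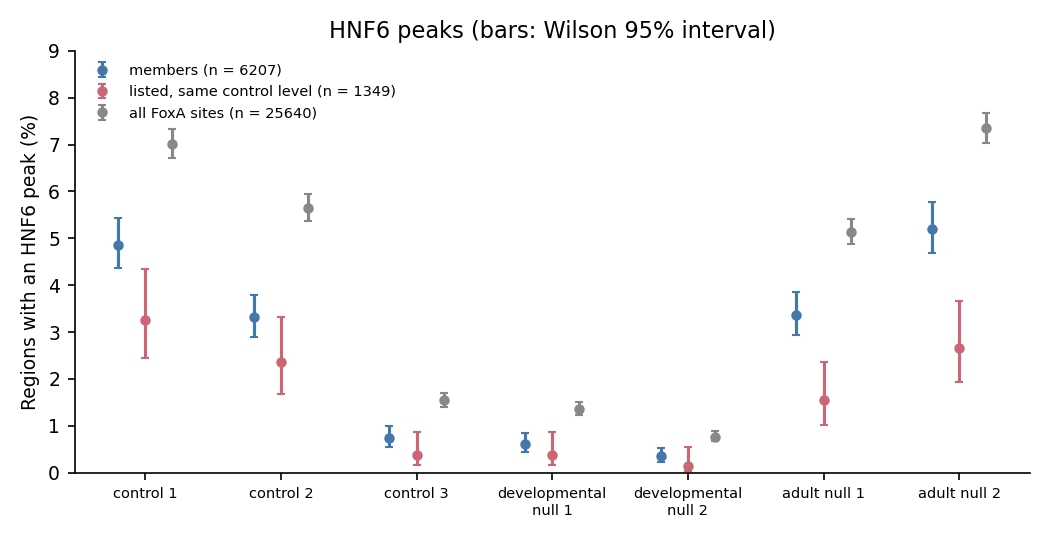
Share of separate regions with an HNF6 peak (percent, vertical axis) in each of 7 peak lists (horizontal axis), for member sites, listed sites of the same control level and all FoxA sites; bars are Wilson 95% intervals. Member shares lie between 0.354% and 5.20%, below those of all FoxA sites in every list.

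The rule sets the WGBS control and developmental null levels of members with and without HNF6 alike. The 51 member sites at HNF6 regions merged from all 3 controls averaged 33.5% in WGBS controls and 36.8% in developmental nulls. At the 47 in both tables the controls were at 30.3% and 35.9% and the adult nulls at 27.9% and 28.2%. The 6330 members without a peak in any control list averaged 36.2% and 40.9%, and at the 5456 of them in both tables the controls were at 35.3% and 37.2% and the adult nulls at 34.3% and 34.4%. Peaks of all 7 lists were found at 13 members. The strongest of these in the first control was at chr15:40271325-40271724, with fold enrichments, as the authors give them, of 28.8, 17.2 and 6.25 in controls and 7.05 and 8.94 in developmental nulls; its methylation was 23.0% and 24.3% in controls, 28.6% and 37.0% in developmental nulls, and 16.0% and 24.6% in adult nulls. Site chr4:97451005-97451404 had fold enrichments of 28.0, 18.2 and 6.98 in controls and 5.18 and 4.87 in developmental nulls, with methylation of 15.9% to 28.5% over the 6 libraries. Site chr6:121784302-121784701 had 28.0, 25.3 and 11.3 in controls and 7.54 and 7.17 in developmental nulls, with methylation of 23.4% to 47.5%. All 3 sites held a peak in each of the 7 lists, including the adult nulls.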

How the data were processed

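Methylation levels were deposited as fractions per 400 bp site (WGBS) or 100 bp tile (RRBS) and multiplied by 100. Per the submitters' processing notes, Trim Galore 0.3.3, BSMAP 2.74 and the mm9 build were used. No source used here gives the way that reads were averaged over a site or tile. Coverage is not given, so no coverage minimum was applied. HNF6 peaks were called per library against input with MACS 2.1.1 or 1.4.3, per the file headers, and fold enrichment is the authors' ratio for each peak. One column of the adult table, headed as a developmental null, was found to repeat control 2 at the 28654 common sites and served for that check alone. The 8 columns of the authors' group averages were not used.

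All sites or tiles with values in every library compared were tested with limma 3.58.1 (R 4.3.3) on percent values, using a variance trend, the spread from all groups of the table, and Benjamini-Hochberg adjustment over the whole table at 0.05, two-sided. The fits were tested on simulated data. The background percentages are shares of all sites or tiles tested. Peaks overlapped by at least 1 bp. Tables were made with Python 3.11.15, pandas 2.3.3 and scipy 1.17.1. Same-numbered age series libraries share an age by label; the correlations of their deviations are 0.391, 0.118, 0.163 and 0.0644.

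Members and lists were chosen with earlier results of these data known. Sites and tiles were named by fixed rules: smallest range, largest adult change outside the range of the other libraries, largest called differences (where none was called, smallest p), most tiles, HNF6 in all lists with the highest fold, densest 10000 bp window, and nearest to the limits. Other exceptions are marked, but sites split into a low and a high tile and called interaction tiles were named in full, outside these rules. The gene tables at hand are of another build than mm9, so no gene names or sequences are given. HNF4a and H3K27ac samples are not analysed here.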

Additional observations from a re-analysis of the deposited data

Results flagged for a closer look

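In the age series, each genotype has 4 libraries, and 12 of 54 such sets of 4 values at the named tiles and sites had 1 library apart from the other 3 by Dixon's criterion. Chance alone marks about 1 in 20 sets, and several tiles were named for a difference with age, so these marks are not independent of the choice. In every marked set the library apart was that of 20 days. At tile chr17:45970901-45971000 it was 100% in the control and 82.4% in the null, at chr10:107885501-107885600 it was 85.0% and 88.5%, and at chr3:84020001-84020100 it was 71.9% and 46.7%. At chr8:111346901-111347000 the 20-day libraries were the low ones, with 4.17% in the control and 22.4% in the null. In controls alone, 28.3% stood apart at chr4:137444101-137444200, 17.5% at chr10:86980001-86980100 and 52.2% at the site chr1:95106922-95107321. In nulls alone, 40% stood apart at chr10:5476301-5476400.

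The step from 20 days to the older ages differed between genotypes at 6 member tiles by the limma interaction test. The step in nulls minus the step in controls was 43.1 points at chr11:82377501-82377600, 27.4 points at chr17:28919801-28919900 and 24.8 points at chr3:84020001-84020100. It was -36.6 points at chr10:123007901-123008000, -35.9 points at chr10:86980001-86980100 and -26.0 points at chr10:5476301-5476400. With 1 library per genotype at 20 days, age and library cannot be told apart.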

How the results depend on the processing

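Counts of calls depended on the processing more than mean differences did. The 5 member tiles higher in nulls of the age series became 0 with the spread from those libraries alone, 1 on a logit scale and 0 with a replicate block; leaving out 1 library gave 1 to 9, with 9 without the 20-day control and at most 3 without any of the others except the 4-month null. Same-numbered age libraries share an age by their labels, but not every pair correlated above 0.1; a block by age with the spread of all RRBS groups, chosen after seeing the data, gave 10 higher and 1 lower. The 0 lower tiles became 0 to 2 when 1 library was left out. At older ages the 65 lower tiles became 28 with the spread of the 8 libraries alone, 38 on a logit scale and 100 when tiles overlapping a site by any length counted, and 42 to 75 with 1 library left out (42 without the 20-day control); the 3 higher tiles became 0 to 3 (0 without the 20-day control, 1 without the 20-day null). For developmental against adult nulls in WGBS, the 262 higher members became 77 with the spread of the 4 libraries, 596 among sites at 5 to 95%, 19 with the replicate block and 0 to 19 with 1 of the 4 libraries left out; the 4 lower became 17 among sites at 5 to 95% and 0 to 3 with 1 library left out. Counts of 0 in the triple nulls, after hepatectomy and in adult nulls stayed 0 under each alternative run.

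Mean differences kept their sign with 1 library left out, from 2.06 to 7.26 points for null against control in the age series, -12.1 to -8.74 for older against 20 days, -3.07 to -2.20 at day 7, -2.45 to -1.42 at day 13 and -3.02 to -0.98 for WGBS adult nulls. The exception was hepatectomy, from -0.15 (without the second control) to 2.07 points. The HNF6 share of 0.741%, for regions merged from all 3 control lists, became 3.21% for regions of any 2 of the 3 lists. It was 0.53% for peaks at or above their list's median fold and 0.41% for members overlapping no site of another class (chosen after seeing the data). With 1 list left out it was 0.74% to 3.11% (3.11% without control 3). The share of members intermediate in adult nulls, 82.2%, was 77.4% with the class taken from control 2 alone. The cause of each change was not tested. Depth per level is unknown.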

Other observations

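Beside the members, 161 FoxA sites of the same control level had developmental null levels lower by 15 points or more, which is how they were chosen. They averaged 37.2% and 39.8% in WGBS controls and 16.8% and 16.5% in developmental nulls. At the 140 of them with adult values, the adult nulls averaged 29.4% and 29.7% and the controls 37.4% and 40.01%. Of those 140 sites, 9 (6.43%) had an adult null mean below 5%, against 7 of 5776 members (0.121%). HNF6 peaks of the 3 control lists overlapped 11 (7.28%), 9 (5.96%) and 0 of their 151 separate regions, and 0 of 151 has a Wilson 95% upper bound of 2.48%, covering counting error only.

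The 10000 bp window with most separate member regions was chr19:21103483-21113482, where 4 of 5 FoxA sites were members and 0 were listed. The other site had a control mean of 2.97%. The members at 21103483, 21106381, 21109956 and 21112020 had control means of 28.4%, 37.5%, 35.6% and 27.4%, developmental null means of 27.6%, 47.3%, 35.7% and 31.9%, and adult null means of 22.0%, 31.6%, 29.7% and 26.6%. The highest member of the window was the same site in all 3 genotypes.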
